A study of Homo sapiens with 12 samples.

Results

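Replication-dependent histone genes encode the linker histone H1 and the core histones H2A, H2B, H3 and H4 that package newly copied DNA. They were taken as the protein-coding genes whose symbols name a clustered histone gene (H1-1 to H1-6 and the numbered H2AC, H2BC, H3C and H4C genes). The annotation holds 69 such genes and 68 of them were in the tables, out of 35810 genes in all. H3C15 was not analysed here. By family, 6 of the 68 were H1, 17 were H2A, 18 were H2B, 12 were H3 and 15 were H4. Of the 69 annotated genes, 55 lie on chromosome 6, 13 on chromosome 1 and 1, H4C16, on chromosome 12.

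Most histone messages of this kind are made in S phase and carry no poly(A) tail. They end just after a conserved stem-loop that is bound by the stem-loop binding protein SLBP, which directs cleavage of the precursor and takes part in translation and decay of the message. A part of these genes also gives polyadenylated transcripts that run on past the stem-loop, and such transcripts are known from differentiated and non-dividing cells.

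The RNA came from HepG2, a cell line from a human liver tumour, and the labels give the molecule as polyadenylated RNA, so the counts below are of histone transcripts captured in such libraries and not of all histone RNA. There were 4 groups of 3 libraries: ARID1B-KO cells with sorafenib, ARID1B-KO cells with DMSO, wild-type cells with sorafenib and wild-type cells with DMSO. Sorafenib, a kinase inhibitor used against liver cancer, was given at 5 µM for 48 h, and DMSO, its solvent, at 0.1%. ARID1B, a subunit of the BAF chromatin remodelling complex, was targeted with CRISPR/Cas9; the labels do not say whether the knockout cells are 1 clone or several, and the design text calls the replicates biological.

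Libraries held 19739582 to 29398257 estimated counts, of which 732 to 2386 fell on histone genes of this kind. ARID1B averaged 29.3 ± 5.44 CPM (estimated counts scaled by library size) in ARID1B-KO cells with sorafenib and 27.3 ± 0.806 CPM in ARID1B-KO cells with DMSO, against 66.3 ± 3.55 CPM in wild type with sorafenib and 62.4 ± 4.17 CPM in wild type with DMSO (SD, n = 3 each). The 7 hepatocyte markers checked, none at 0, summed to 110000 to 173000 CPM in ARID1B-KO with sorafenib, 87400 to 105000 CPM in ARID1B-KO with DMSO, 87600 to 95800 CPM in wild type with sorafenib and 74800 to 84500 CPM in wild type with DMSO. The 3 leukocyte markers, 1 of them at 0 throughout, summed to 29.4 to 45.5 CPM in ARID1B-KO with sorafenib, 37.7 to 52.4 CPM in ARID1B-KO with DMSO, 27.1 to 31.6 CPM in wild type with sorafenib and 26.2 to 31.4 CPM in wild type with DMSO. The 4 fibroblast markers stayed at or under 0.525 CPM, with 2 at 0. The 3 biliary markers summed to 424 to 511 CPM in ARID1B-KO with sorafenib, 375 to 419 CPM in ARID1B-KO with DMSO, 446 to 459 CPM in wild type with sorafenib and 397 to 426 CPM in wild type with DMSO. The 3 endothelial markers, none of them at 0 throughout, summed to 7.01 to 10.6 CPM in ARID1B-KO with sorafenib, 2.93 to 6.70 CPM in ARID1B-KO with DMSO, 2.91 to 4.14 CPM in wild type with sorafenib and 1.16 to 1.95 CPM in wild type with DMSO. The hepatocyte, biliary and endothelial sums lay apart by treatment in both genotypes. A sum follows its most abundant genes. With sorafenib, 3 of the 7 hepatocyte markers were higher and 1 lower in ARID1B-KO (edgeR adjusted p under 0.05). In wild type 3 were higher and 2 lower. The hepatocyte and endothelial sums also lay apart by genotype under both treatments, and the leukocyte sum in DMSO. Their part in the histone results was not tested. In bulk RNA, fewer cells in a given phase and less RNA per cell cannot be told apart.

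The stem-loop that defines these messages was found in the genome downstream of every one of the 69 annotated genes, as a 16-base stretch that begins 22 to 67 bases after the stop codon. It was searched on the coding strand within 100 bases after the stop codon. Only 72 of 19226 protein-coding genes (0.374%) carry it there, and the 3 that are no members are H2AX, H3-4 and H3-7. A set of 8 stem-loops is printed here from GRCh38, on the coding strand. They belong to some of the genes called higher with sorafenib in both genotypes and to 2 genes called in neither. Capitals mark the stem-loop.
H1-2 (chr6:26055739-26055764, minus strand): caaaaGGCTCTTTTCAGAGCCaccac
H2AC6 (chr6:26124664-26124689, plus strand): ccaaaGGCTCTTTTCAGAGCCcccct
H2AC19 (chr1:149851569-149851594, plus strand): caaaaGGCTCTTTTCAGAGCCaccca
H2BC21 (chr1:149886183-149886208, minus strand): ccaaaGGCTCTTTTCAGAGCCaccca
H3C10 (chr6:27810511-27810536, plus strand): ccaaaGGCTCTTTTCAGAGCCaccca
H4C5 (chr6:26204996-26205021, plus strand): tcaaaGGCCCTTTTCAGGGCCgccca
H2AC20 (chr1:149887386-149887411, plus strand): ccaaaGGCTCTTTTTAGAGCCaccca
H4C11 (chr6:27824454-27824479, plus strand): taaaaGGCCCTTTTCAGGGCCaccct
The 69 genes use 10 different stem-loops, and the form shared by H1-2, H2AC6, H2AC19, H2BC21 and H3C10 is the most common, in 40 genes. The form in H4C5, which rose, is also the form in H4C11, which did not, and it occurs in 10 genes. H2AC20 is the single gene with its form.

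Most members were scarce. Of the 68 genes in the tables, 28 passed the filter on low counts (2 H1, 8 H2A, 8 H2B, 4 H3 and 6 H4 genes), 40 did not, and 14 of those 40 had 0 counts in every library. The highest value of an untested gene was 1.87 CPM, for H4C12 in 1 library. Reads from its coding sequence cannot be told apart from those of H4C11, which has the same one. The 6 genes with most counts, H2AC6, H1-2, H2AC19, H3C10, H2BC21 and H4C11, held 64.8% of all counts on these genes. On the TPM scale, which divides by transcript length, the order was different: H4C11 averaged 31.0 TPM over the 12 libraries, H1-2 20.6 TPM, H2AC19 12.6 TPM, H2AC6 9.19 TPM, H3C10 6.64 TPM and H2BC21 3.11 TPM. A gene that passed the filter only through the group where it is high had to differ, so counts over the 28 genes below describe them and support no general statement.

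Summed over all 68 genes, histone transcripts were higher with sorafenib in both genotypes. ARID1B-KO libraries with sorafenib had 79.4, 69.8 and 85.2 CPM, against 34.8, 37.9 and 39.3 CPM in ARID1B-KO libraries with DMSO. Wild-type libraries with sorafenib had 85.6, 86.2 and 86.9 CPM, against 57.8, 45.6 and 44.4 CPM with DMSO. No sorafenib library overlapped a DMSO library of its genotype, and the ratio of means was 2.09 in ARID1B-KO and 1.75 in wild type. The ratio was above 1 in every family. It was 1.84 in ARID1B-KO and 1.90 in wild type for H1, 2.12 and 1.85 for H2A, 2.46 and 1.76 for H2B, and 2.49 and 1.92 for H3, with ARID1B-KO given first. For H4 the libraries with sorafenib had 8.54, 7.84 and 12.2 CPM in ARID1B-KO, against 5.09, 7.55 and 7.21 CPM with DMSO, and 10.3, 11.7 and 9 CPM in wild type, against 10.9, 7.40 and 6.03 CPM with DMSO. The H4 groups overlapped in wild type and lay apart in ARID1B-KO.

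**Figure D1:**
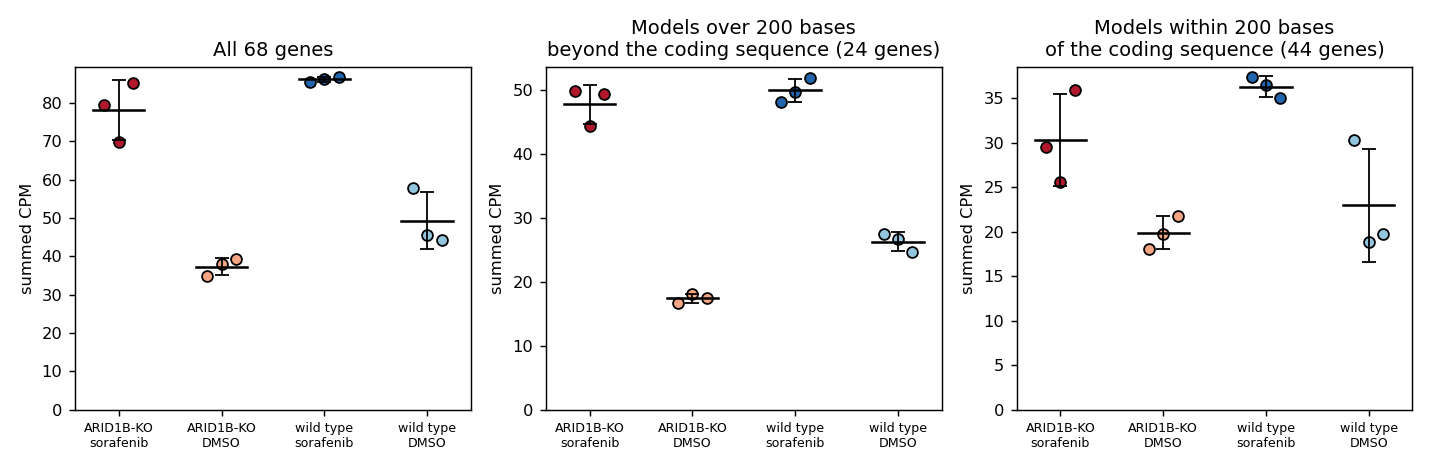
Summed CPM of histone genes in each library, for all 68 genes and for genes split by the length of their deposited transcript models. The split is at 200 bases more than the coding sequence, counted on either side of it. Points are libraries, horizontal lines means and bars SDs (n = 3). All 3 sorafenib libraries of each genotype lie above its DMSO libraries for the full set.

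In the test of single genes, 14 of the 28 were higher and 0 lower with sorafenib in ARID1B-KO cells, where 23.0% of all 12821 genes tested were called higher and 23.7% lower (edgeR quasi-likelihood test, Benjamini-Hochberg adjusted p under 0.05). In wild type, 11 were higher and 0 lower, against 17.5% higher and 18.0% lower over all genes. The median log2 fold change was 0.94 in ARID1B-KO and 0.72 in wild type for the 28 genes, beside 0.01 and -0.01 over all genes tested. The 10 genes called higher in both genotypes were H1-2, H2AC6, H2AC11, H2AC13, H2AC19, H2BC15, H2BC21, H3C6, H3C10 and H4C5. A further 4 (H2BC4, H2BC5, H2BC12 and H4C15) were called in ARID1B-KO but not in wild type, and H2BC13 in wild type but not in ARID1B-KO. Being called in 1 genotype only is no test of a difference between genotypes, which is given further on.

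**Figure D2:**
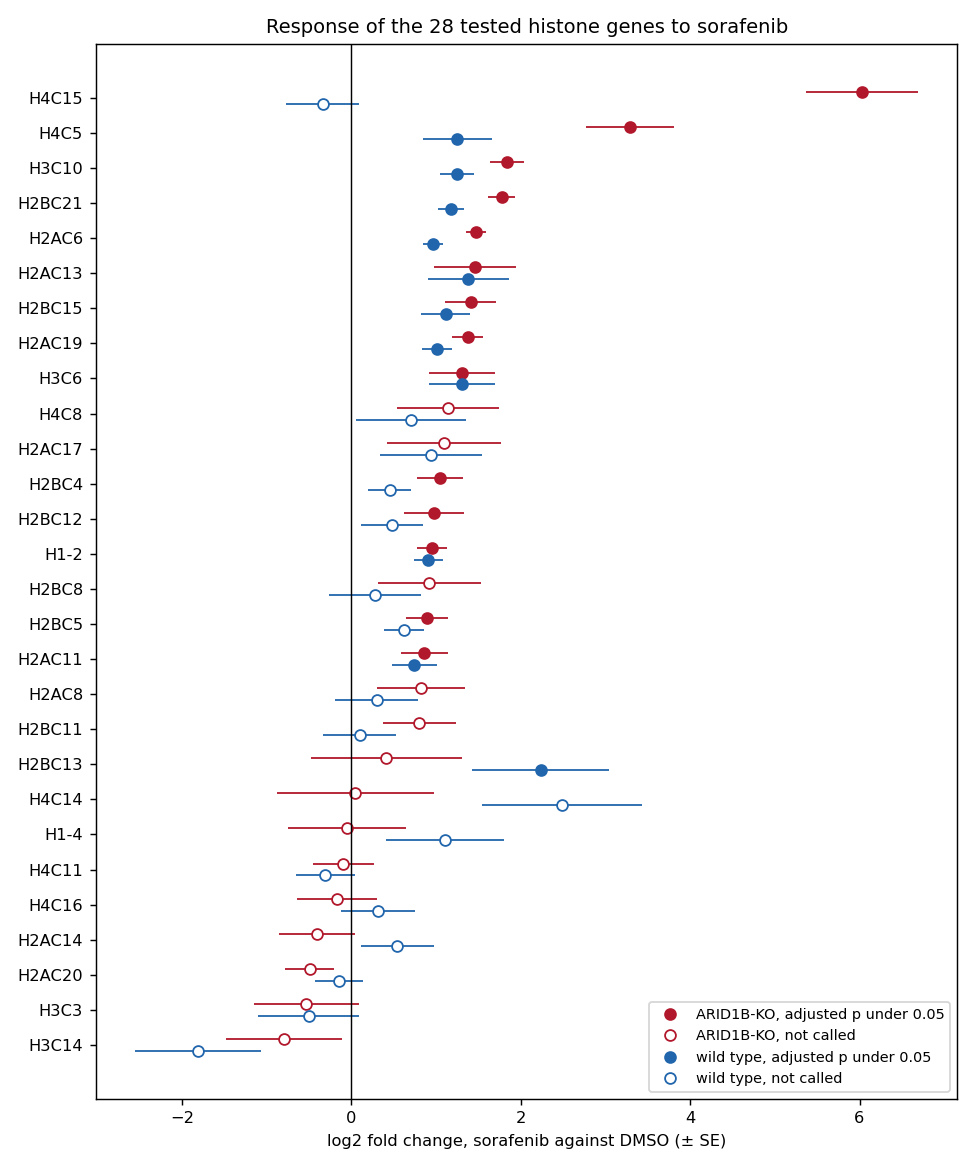
Log2 fold change (± SE) of sorafenib against DMSO for the 28 tested genes in ARID1B-KO (red) and wild type (blue), sorted by the ARID1B-KO value; filled points passed an adjusted p of 0.05. Most points lie above 0 and no filled point lies below it.

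Among H1 genes, H1-2, a linker histone that binds the nucleosome where DNA enters and leaves it, had 7.87, 7.34 and 7.70 CPM in ARID1B-KO with sorafenib, against 4.09, 4.18 and 3.56 CPM in ARID1B-KO with DMSO. In wild type it had 14.5, 12.9 and 12.6 CPM with sorafenib, against 9.48, 5.57 and 6.22 CPM with DMSO. Sorafenib and DMSO libraries did not overlap in either genotype, and every wild-type library with sorafenib was above every other library. The log2 fold change was 0.95 ± 0.18 (SE) in ARID1B-KO (edgeR adjusted p = 0.000874) and 0.91 ± 0.17 in wild type (edgeR adjusted p = 0.00131). H1-4, the other H1 gene tested, stayed at or under 0.96 CPM and was called in neither genotype.

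The H2A genes with the most counts, both encoding canonical H2A, rose together. H2AC6 had 12.1, 11.1 and 12.4 CPM in ARID1B-KO with sorafenib, against 3.80, 4.36 and 4.66 CPM with DMSO, and 14.7, 14.6 and 15.7 CPM in wild type with sorafenib, against 8.42, 7.63 and 6.97 CPM with DMSO. These 4 groups did not overlap. The log2 fold change was 1.47 ± 0.12 in ARID1B-KO (edgeR adjusted p = 1.09e-06) and 0.97 ± 0.12 in wild type (edgeR adjusted p = 4e-05). Between the transcript models of H2AC6 the reads moved from one library to the next. In ARID1B-KO with sorafenib a model annotated as subject to nonsense-mediated decay held 260.4, 0 and 216.8 estimated counts, and a single-exon model with nearly the same length held 0, 206.5 and 0. When only models annotated as protein coding were summed, H2AC6 was no longer called, at a log2 fold change of 1.54 in ARID1B-KO (edgeR adjusted p = 0.407) and 2.08 in wild type (edgeR adjusted p = 0.284).

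H2AC19 had 9.43, 7.93 and 11.3 CPM in ARID1B-KO with sorafenib, against 3.19, 3.64 and 4.23 CPM with DMSO, and 8.5, 8.04 and 8.71 CPM in wild type with sorafenib, against 4.52, 3.23 and 4.76 CPM with DMSO. All sorafenib libraries were above all DMSO libraries. Its log2 fold change was 1.38 ± 0.18 in ARID1B-KO (edgeR adjusted p = 5.41e-05) and 1.01 ± 0.18 in wild type (edgeR adjusted p = 0.000798). Its coding sequence is identical to that of H2AC18, which was listed at 0 counts in every library, so reads from the 2 genes cannot be told apart within the coding sequence.

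**Figure D3:**
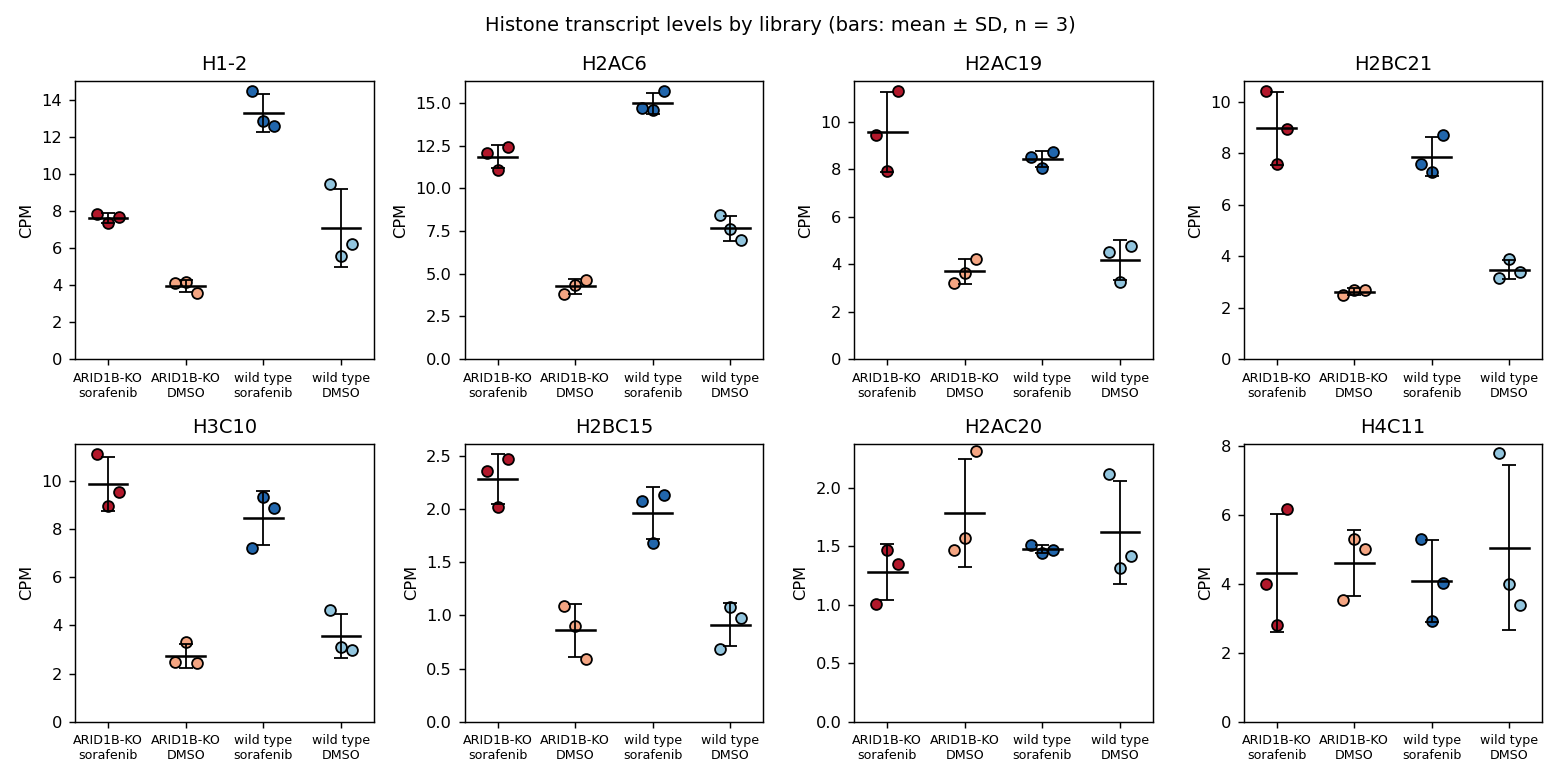
CPM of 8 histone genes in each library; points are libraries, horizontal lines means and bars SDs (n = 3 per group). H1-2, H2AC6, H2AC19, H2BC21, H3C10 and H2BC15 lie higher with sorafenib in both genotypes, whereas the groups of H4C11 overlap in both genotypes. The groups of H2AC20 overlap in wild type. In ARID1B-KO they lie just apart, lower with sorafenib, and the nearest values both round to 1.47 CPM.

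Other H2A genes showed smaller counts. H2AC11 had 1.39, 1.97 and 1.68 CPM in ARID1B-KO with sorafenib, against 0.95, 0.90 and 0.91 CPM with DMSO, and 2.01, 2.58 and 2.01 CPM in wild type with sorafenib, against 1.64, 1.26 and 1.01 CPM with DMSO. H2AC13 had 1.24, 1.74 and 1.73 CPM in ARID1B-KO with sorafenib, against 1.08, 0.32 and 0.31 CPM with DMSO, and 1.13, 1.61 and 1.29 CPM in wild type with sorafenib, against 0.41, 0.76 and 0.40 CPM with DMSO. In both genes the sorafenib libraries lay above the DMSO libraries of their genotype. H2AC13 shares 81.6% of the 75-base windows of its coding sequence with 1 other gene. Its values therefore depend on how Salmon divided the shared reads. The log2 fold change was 0.86 ± 0.27 for H2AC11 (edgeR adjusted p = 0.0204) and 1.46 ± 0.48 for H2AC13 (edgeR adjusted p = 0.024) in ARID1B-KO. In wild type it was 0.75 ± 0.26 for H2AC11 (edgeR adjusted p = 0.042) and 1.38 ± 0.48 for H2AC13 (edgeR adjusted p = 0.0393). H2AC20 had 1.01, 1.47 and 1.35 CPM in ARID1B-KO with sorafenib, against 1.47, 1.57 and 2.31 CPM with DMSO, and 1.51, 1.44 and 1.47 CPM in wild type with sorafenib, against 2.12, 1.31 and 1.42 CPM with DMSO. In ARID1B-KO its sorafenib libraries lay just below its DMSO libraries before rounding, the nearest values both being 1.47 CPM as given. In wild type its groups overlapped. The log2 fold change was -0.49 ± 0.29 in ARID1B-KO and -0.14 ± 0.28 in wild type, neither called. H2AC8, H2AC14 and H2AC17 were called in no contrast. H2AC14, which has as many shared windows as H2AC13 (258), had log2 fold changes of -0.404 ± 0.45 in ARID1B-KO and 0.544 ± 0.435 in wild type.

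H2BC21 was the H2B gene with the most counts. It had 10.4, 7.57 and 8.94 CPM in ARID1B-KO with sorafenib, against 2.47, 2.70 and 2.69 CPM with DMSO, and 7.57, 7.28 and 8.71 CPM in wild type with sorafenib, against 3.15, 3.89 and 3.37 CPM with DMSO. All 6 sorafenib libraries were above all 6 DMSO libraries, and the log2 fold change was 1.77 ± 0.16 in ARID1B-KO (edgeR adjusted p = 2.24e-06) and 1.18 ± 0.16 in wild type (edgeR adjusted p = 8.01e-05). H2BC15 had 2.36, 2.02 and 2.47 CPM in ARID1B-KO with sorafenib, against 1.09, 0.90 and 0.59 CPM with DMSO, and 2.08, 1.68 and 2.13 CPM in wild type with sorafenib, against 0.68, 1.08 and 0.97 CPM with DMSO. Again no sorafenib library overlapped a DMSO library, with log2 fold changes of 1.41 ± 0.30 in ARID1B-KO (edgeR adjusted p = 0.00176) and 1.11 ± 0.29 in wild type (edgeR adjusted p = 0.00949).

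A further 3 H2B genes were called in ARID1B-KO and not in wild type. H2BC4 had 1.26, 1.93 and 1.98 CPM in ARID1B-KO with sorafenib, against 1.00, 0.72 and 0.77 CPM with DMSO, and 3.01, 2.30 and 2.34 CPM in wild type with sorafenib, against 2.05, 1.59 and 1.95 CPM with DMSO. H2BC5 had 2.90, 2.25 and 1.98 CPM in ARID1B-KO with sorafenib, against 1.62, 1.17 and 1.06 CPM with DMSO, and 3.16, 2.58 and 3.31 CPM in wild type with sorafenib, against 2.19, 1.92 and 1.76 CPM with DMSO. H2BC12 had 2.19, 1.42 and 2.57 CPM in ARID1B-KO with sorafenib, against 0.76, 1.21 and 1.15 CPM with DMSO, and 1.08, 0.72 and 1.51 CPM in wild type with sorafenib, against 0.65, 0.98 and 0.75 CPM with DMSO. Groups lay apart for H2BC4 and H2BC5 in both genotypes, while H2BC12 overlapped in wild type. The ARID1B-KO log2 fold changes were 1.05 ± 0.27 for H2BC4 (edgeR adjusted p = 0.00708), 0.89 ± 0.25 for H2BC5 (edgeR adjusted p = 0.00977) and 0.98 ± 0.35 for H2BC12 (edgeR adjusted p = 0.0378). H2BC13 had 0.75, 0.48 and 0.59 CPM in wild type with sorafenib, against 0.31, 0.05 and 0 CPM with DMSO, and 0.30, 0.23 and 0.10 CPM in ARID1B-KO with sorafenib, against 0.28, 0.09 and 0.10 CPM with DMSO. Its wild-type rise of 2.24 ± 0.81 on the log2 scale (edgeR adjusted p = 0.0466) rests on 0 to 0.31 CPM in the DMSO libraries.

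Among H3 genes, H3C10 had the most counts. It had 11.1, 8.94 and 9.53 CPM in ARID1B-KO with sorafenib, against 2.47, 3.32 and 2.45 CPM with DMSO, and 7.21, 9.33 and 8.87 CPM in wild type with sorafenib, against 4.62, 3.09 and 2.96 CPM with DMSO. All 6 sorafenib libraries were above all 6 DMSO libraries, and the log2 fold change was 1.84 ± 0.20 in ARID1B-KO (edgeR adjusted p = 1.2e-05) and 1.24 ± 0.20 in wild type (edgeR adjusted p = 0.00033). H3C6 had 1.26, 1.19 and 1.73 CPM in ARID1B-KO with sorafenib, against 0.52, 0.67 and 0.48 CPM with DMSO, and 1.33, 1.39 and 0.88 CPM in wild type with sorafenib, against 0.31, 0.75 and 0.41 CPM with DMSO. It rose by 1.31 ± 0.39 on the log2 scale in ARID1B-KO (edgeR adjusted p = 0.0144) and by 1.31 ± 0.39 in wild type (edgeR adjusted p = 0.019). H3C3 and H3C14 had log2 fold changes of -0.53 and -0.80 in ARID1B-KO and of -0.50 and -1.81 in wild type, none of them called.

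The H4 genes did not move as a block. H4C11, the highest member per length, had 4, 2.80 and 6.17 CPM in ARID1B-KO with sorafenib, against 3.52, 5.30 and 5.00 CPM with DMSO, and 5.31, 2.91 and 4.02 CPM in wild type with sorafenib, against 7.80, 3.98 and 3.37 CPM with DMSO. The libraries overlapped in both genotypes, and the log2 fold change was -0.10 ± 0.36 in ARID1B-KO and -0.31 ± 0.35 in wild type. The coding sequence of H4C11 is identical to that of H4C12. With both summed, an alternative chosen after seeing the data, the values were -0.095 ± 0.33 and -0.107 ± 0.33, ARID1B-KO given first. Wild-type sorafenib replicate 2 then had 4.79 CPM in place of 2.91 CPM. H4C5 had 0.59, 0.64 and 0.74 CPM in ARID1B-KO with sorafenib, against 0.05, 0.09 and 0.05 CPM with DMSO, and 0.68, 0.81 and 0.59 CPM in wild type with sorafenib, against 0.20, 0.33 and 0.34 CPM with DMSO. Its libraries lay apart by treatment, and the log2 fold change was 3.29 ± 0.52 in ARID1B-KO (edgeR adjusted p = 0.000206) and 1.25 ± 0.41 in wild type (edgeR adjusted p = 0.0286). The ARID1B-KO value rests on 4 estimated counts over the 3 DMSO libraries, so its size is uncertain. H4C8 and H4C16 were called in no contrast.

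H4C14 and H4C15 lie on chromosome 1 and have identical coding sequences, and their values have to be read together. H4C15 had 2.88, 2.41 and 1.88 CPM in ARID1B-KO with sorafenib, against 0.09, 0 and 0 CPM in ARID1B-KO with DMSO, and 1.29, 0.56 and 0.99 CPM in wild type with sorafenib, against 1.22, 1.06 and 1.35 CPM with DMSO. Over the group, 159 counts in ARID1B-KO with sorafenib stood against 2 with DMSO, a ratio of 77.4 with an exact 95% interval of 21.1 to 645 that covers counting error only. H4C14 had 0.07, 0.80 and 1.82 CPM in ARID1B-KO with sorafenib, against 0.48, 0.99 and 1.11 CPM with DMSO, and 1.65, 3.27 and 2.73 CPM in wild type with sorafenib, against 0.46, 0.95 and 0 CPM with DMSO. The sum of both genes had 2.95, 3.21 and 3.70 CPM in ARID1B-KO with sorafenib, against 0.571, 0.988 and 1.11 CPM with DMSO, and 2.94, 3.83 and 3.73 CPM in wild type with sorafenib, against 1.68, 2.01 and 1.35 CPM with DMSO. The sum lay apart by treatment in both genotypes.

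**Figure D4:**
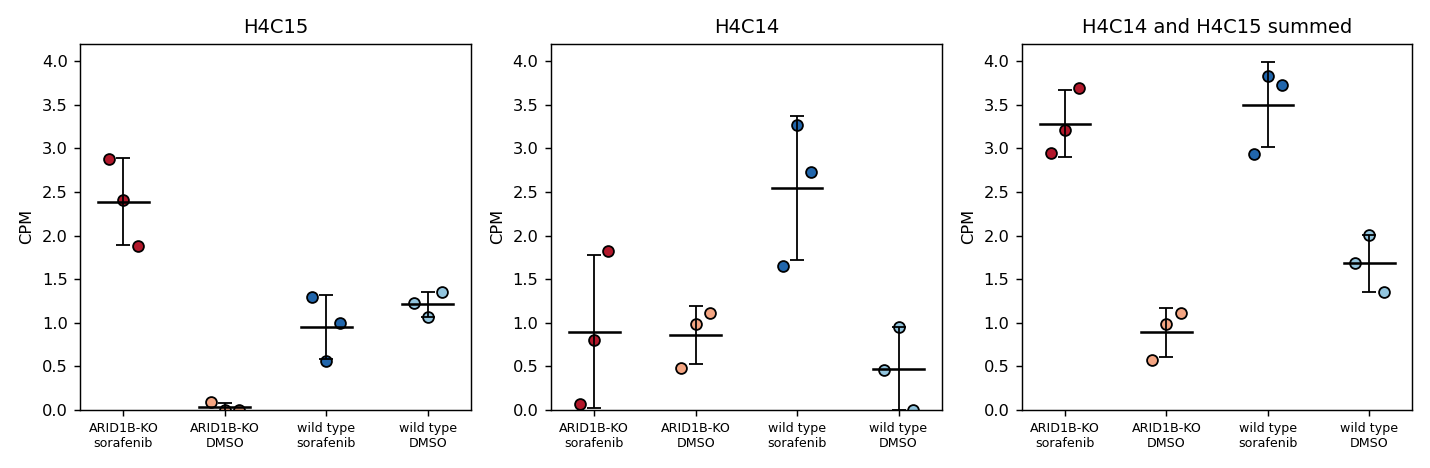
CPM of H4C15, of H4C14 and of their sum in each library; points are libraries, horizontal lines means and bars SDs (n = 3). H4C15 is near 0 in ARID1B-KO with DMSO, while the sum there lies between 0.571 and 1.11 CPM.

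With the counts of identical copies summed, an alternative chosen after seeing the data, the pair rose by 1.88 ± 0.27 on the log2 scale with sorafenib in ARID1B-KO (edgeR adjusted p = 0.000108) and by 1.06 ± 0.26 in wild type (edgeR adjusted p = 0.006). Taken singly, H4C15 stood at 6.03 ± 0.66 on that scale in ARID1B-KO (edgeR adjusted p = 1.14e-05), and H4C14 was not called in either genotype. With 2 counts in ARID1B-KO with DMSO, counting error alone is wider than the SE printed for H4C15.

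The calls for H1-2, H2AC19, H2BC15, H2BC21 and H3C10 in both genotypes, and those for H2BC4, H2BC5, H4C5 and H4C15 in ARID1B-KO, were kept under every alternative run. Other calls were lost under some of them, and the edgeR adjusted p there is given in brackets as a range over those alternatives, which include the effective length offset and other settings beside the single libraries named. In ARID1B-KO, the call of H2BC12 (0.0508 to 0.131) was lost without any single DMSO library or without sorafenib replicate 1 or 3. Also in ARID1B-KO, H2AC13 (0.0527 to 0.0908) lost it without replicate 2 or 3 of either treatment, H2AC11 (0.0502 to 0.0769) without replicate 2 of either treatment and H3C6 (0.0588) without sorafenib replicate 3. In wild type, H4C5 (0.0529 to 0.116) lost it without any single DMSO library or without sorafenib replicate 1 or 2, and H3C6 (0.0615 to 0.22) without replicate 1 of either treatment, DMSO replicate 3 or sorafenib replicate 2. H2AC13 (0.0554 to 0.118) lost the wild-type call without any single wild-type sorafenib library, wild-type DMSO replicate 1 or 3, or ARID1B-KO sorafenib replicate 2. H2AC11 (0.0502 to 0.148) lost it without any single wild-type sorafenib library, replicate 2 or 3 of the DMSO libraries of either genotype, or ARID1B-KO sorafenib replicate 3. H2BC13 (0.0507 to 0.144) lost it without any single ARID1B-KO library, wild-type DMSO replicate 2 or 3, or wild-type sorafenib replicate 2. The number called in wild type was 6 without wild-type DMSO replicate 3 or wild-type sorafenib replicate 1 or 2.

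Between genotypes, the sum over all 68 genes was lower in ARID1B-KO than in wild type under both treatments. The ratio of means was 0.757 in DMSO and 0.906 with sorafenib. The genotypes did not overlap, though with sorafenib the nearest libraries had 85.2 CPM in ARID1B-KO and 85.6 CPM in wild type. In DMSO, 5 of the 28 genes were lower and 0 higher in ARID1B-KO than in wild type, where 13.5% of all genes were lower and 14.3% higher. The log2 fold change of H1-2 was -0.85 ± 0.18 (edgeR adjusted p = 0.00375), that of H2AC6 -0.84 ± 0.12 (edgeR adjusted p = 0.000251) and that of H2BC4 -1.17 ± 0.27 (edgeR adjusted p = 0.00662). Over protein-coding models only, H2AC6 had -0.15 (edgeR adjusted p = 0.951). H4C5 had -2.12 ± 0.55 (edgeR adjusted p = 0.0122) and H4C15 -5.07 ± 0.68 (edgeR adjusted p = 0.000141), the sum of H4C14 and H4C15 being -0.91 ± 0.27 (edgeR adjusted p = 0.0256). The single values of H4C5 and H4C15 rest on 4 and 2 counts in ARID1B-KO with DMSO. The groups of H1-2, H2AC6, H2BC4, H4C5 and H4C15 did not overlap. ARID1B-KO with DMSO enters this comparison and that of sorafenib in ARID1B-KO, so the 2 sets of values are not independent. The hepatocyte, endothelial and leukocyte sums given above were higher in ARID1B-KO than in wild type in DMSO as well. The hepatocyte sum does not stand for its 7 markers. ALB was called higher, TTR lower and the rest not, at a median log2 fold change of -0.035. Of the leukocyte markers only CD68 was tested, and it was called higher. The 2 endothelial markers tested, VWF and CDH5, were both called higher.

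With sorafenib, 2 genes were lower in ARID1B-KO than in wild type and 1 was higher, against 13.8% lower and 13.2% higher over all genes. The log2 fold change of H1-2 was -0.80 ± 0.17 (edgeR adjusted p = 0.00418) and that of H2AC6 -0.34 ± 0.12 (edgeR adjusted p = 0.0453). Over the alternatives that ended it, the adjusted p of H2AC6 was 0.0553 to 0.74, among them leaving out any sorafenib library or DMSO replicate 2 of either genotype. H4C15, at 1.31 ± 0.43 (edgeR adjusted p = 0.0383), was the higher gene, and its sum with H4C14 had -0.089 ± 0.25 (edgeR adjusted p = 0.827). The H4C15 call was also lost (0.0523 to 0.471) without replicate 1 or 2 of ARID1B-KO with sorafenib, or replicate 2 or 3 of wild type with either treatment. H1-2 was thus lower in ARID1B-KO under both treatments.

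The response to sorafenib was tested for a difference between genotypes as an interaction, the response in ARID1B-KO minus that in wild type. Of the 28 genes 1 was called, H4C15, where 0.835% of all genes were called. Its interaction was 6.37 ± 0.81 (edgeR adjusted p = 0.00766), and that of the sum of H4C14 and H4C15 was 0.82 ± 0.37 (edgeR adjusted p = 0.31). The H4C15 interaction was also not called with the effective length offset (edgeR adjusted p = 0.0851) or over protein-coding models only (edgeR adjusted p = 0.215). The interaction of H2BC21 was 0.60 ± 0.22 (edgeR adjusted p = 0.21), of H3C10 0.59 ± 0.28 (edgeR adjusted p = 0.335), of H2AC6 0.51 ± 0.17 (edgeR adjusted p = 0.168) and of H4C5 2.04 ± 0.67 (edgeR adjusted p = 0.165). A larger response in ARID1B-KO was therefore not established for these 4 genes, and it was not shown to be absent. For H1-2 the interaction was 0.05 ± 0.25 (edgeR adjusted p = 0.957).

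The transcript models that the authors quantified against differ in how many bases they hold in excess of the coding sequence. Bases before and after the coding sequence were counted alike, so a long model need not run past the stem-loop. In 24 genes the longest model holds over 200 bases more than the coding sequence (at least 278), and in 44 it does not (at most 171). This division was chosen after the values were known and is a description. The 24 genes with long models summed to 49.8, 44.3 and 49.3 CPM in ARID1B-KO with sorafenib, against 16.7, 18.1 and 17.5 CPM with DMSO, and to 48.2, 49.7 and 51.9 CPM in wild type with sorafenib, against 27.5, 26.7 and 24.7 CPM with DMSO. The 44 genes with short models summed to 30.3 ± 5.18 CPM in ARID1B-KO with sorafenib, against 19.9 ± 1.84 CPM with DMSO, and to 36.3 ± 1.21 CPM in wild type with sorafenib, against 23.0 ± 6.33 CPM with DMSO (SD, n = 3). The ratio of means was 2.74 in ARID1B-KO and 1.90 in wild type for long models, and 1.53 and 1.58 for short ones. Of 16 tested genes with long models, 10 were called higher in ARID1B-KO and 7 in wild type, and of 12 with short models 4 and 4, beside 23.0% of all genes in ARID1B-KO and 17.5% in wild type. The difference between long and short models was not tested. In 31 of the 94 models the files hold coding sequence only, so reads from their ends were not counted there.

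At the level of single transcripts, 32 of which passed the filter, 5 were called higher with sorafenib in ARID1B-KO and 4 in wild type, where 2.86% and 1.93% of all 47729 transcripts were called higher. H2BC21-201 rose by 1.76 ± 0.20 in ARID1B-KO (edgeR adjusted p = 0.000767) and by 1.21 ± 0.20 in wild type (edgeR adjusted p = 0.00863) on the log2 scale. H3C10-201 rose by 1.83 ± 0.25 (edgeR adjusted p = 0.00227) and 1.28 ± 0.25 (edgeR adjusted p = 0.0207), and H2AC19-201 by 1.36 ± 0.23 (edgeR adjusted p = 0.00616) and 1.04 ± 0.22 (edgeR adjusted p = 0.0344), with ARID1B-KO given first. H1-2-201 was called in both genotypes as well, and H4C5-201 in ARID1B-KO. All 5 transcripts have a single exon, as do 68 of the 94 histone transcript models, so this is no trait particular to those called. No histone transcript was called by edgeR in a comparison of genotypes or in the interaction. All transcripts called made up 2.89% of those tested for genotype in DMSO, 2.76% with sorafenib and 0.0608% for the interaction. Of the histone transcripts there, 7 had an unadjusted p under 0.05 in DMSO, 2 with sorafenib and 4 in the interaction.

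Histone genes often stand head to head and share the stretch between them. Within 1000 bases, 13 such pairs were found, 12 of them of an H2A and an H2B gene that start 193 to 250 bases apart. In 5 pairs both genes were tested. H2BC21 and H2AC20, 235 bases apart on chromosome 1, had log2 fold changes of 1.77 and -0.49 in ARID1B-KO, and of 1.18 and -0.14 in wild type. H2BC4 and H2AC6, 245 bases apart on chromosome 6, had 1.05 and 1.47 in ARID1B-KO, and 0.45 and 0.97 in wild type. H2BC8 and H2AC8 had 0.92 and 0.82 in ARID1B-KO, and 0.28 and 0.30 in wild type. H2BC11 and H2AC11 had 0.80 and 0.86 in ARID1B-KO, and 0.10 and 0.75 in wild type, and H2BC13 and H2AC13 had 0.41 and 1.46, and 2.24 and 1.38. So 4 of the 5 pairs had 1 sign in both genotypes. Most of the 28 tested genes had positive values in both genotypes, so like signs do not set the pairs apart. In the fifth pair H2BC21 was called and H2AC20 was not. Calls differed within other pairs too, as H2AC11 was called in both genotypes and H2BC11 in neither.

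The 150 bases before the start of H2BC21, H2AC20 and H2AC6 are printed from RefSeq (GRCh38.p14), on the coding strand of each gene, because the first 2 share their promoter region and the third is the member with most counts. Capitals mark the CCAAT box, the TATA box (TATAAA) and the octamer (ATTTGCAT), on either strand.
H2BC21 (chr1:149886683-149886832, minus strand): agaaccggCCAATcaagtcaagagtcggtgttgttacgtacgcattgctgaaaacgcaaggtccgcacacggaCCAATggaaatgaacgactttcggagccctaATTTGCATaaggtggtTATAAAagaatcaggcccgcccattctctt
H2AC20 (chr1:149886768-149886917, plus strand): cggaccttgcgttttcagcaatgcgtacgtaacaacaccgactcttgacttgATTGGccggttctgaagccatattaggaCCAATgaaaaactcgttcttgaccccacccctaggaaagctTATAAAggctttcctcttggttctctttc
H2AC6 (chr6:26124022-26124171, plus strand): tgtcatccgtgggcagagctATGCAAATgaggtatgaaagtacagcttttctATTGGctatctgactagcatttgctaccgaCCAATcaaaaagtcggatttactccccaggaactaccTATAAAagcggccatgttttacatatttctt
Over the 250 bases before the start, CCAAT was found on either strand in 54 of 64 members with an entry (84.4%), against 32.0% of 35116 promoters of all genes. The entries of H3C4 and H2AC7 are the same stretch, so its motifs were counted for both genes. TATAAA was found in 42 of 64 (65.6%), against 10.7%, and ATTTGCAT, the octamer bound by POU factors, in 26 of 64 (40.6%), against 1.63%. H2BC21, which rose, and H2AC20, which was not called, both hold all 3 motifs in that window. Their starts are 235 bases apart, so the 2 windows cover nearly the same DNA and had to hold nearly the same motifs. The octamer is not among the 150 bases printed for H2AC20. Their unlike responses cannot be read against this match. A match of letters is a description and not a site of binding.

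Of the genes that make and process histone messages, most that were called were lower with sorafenib. SLBP had 41.5, 48.0 and 54.0 CPM in ARID1B-KO with sorafenib, against 80.2, 83.7 and 95.8 CPM with DMSO, and 60.5, 50.1 and 55.9 CPM in wild type with sorafenib, against 100.0, 86.3 and 85.2 CPM with DMSO. All sorafenib libraries were below all DMSO libraries, and the log2 fold change was -0.86 ± 0.11 in ARID1B-KO (edgeR adjusted p = 5.62e-05) and -0.71 ± 0.11 in wild type (edgeR adjusted p = 0.000363). NPAT, the coactivator of histone gene transcription in S phase, had log2 fold changes of 0.07 ± 0.11 and 0.02 ± 0.11, not called. Of the 23 genes for histone transcription and 3′ end processing, 14 were lower and 1 higher with sorafenib in ARID1B-KO, with 7 lower and 1 higher in wild type. Over all genes tested, 23.7% were lower and 23.0% higher in ARID1B-KO, and 18.0% and 17.5% in wild type. CCNE2, a cyclin E that activates CDK2 at the start of S phase, fell by 1.36 in ARID1B-KO (edgeR adjusted p = 0.000207) and by 1.08 in wild type (edgeR adjusted p = 0.0015) on the log2 scale. TUT7, which adds uridines to RNA ends and is the gene of the list that rose, had 0.68 (edgeR adjusted p = 9.98e-05) and 0.51 (edgeR adjusted p = 0.00116), ARID1B-KO given first.

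**Figure D5:**
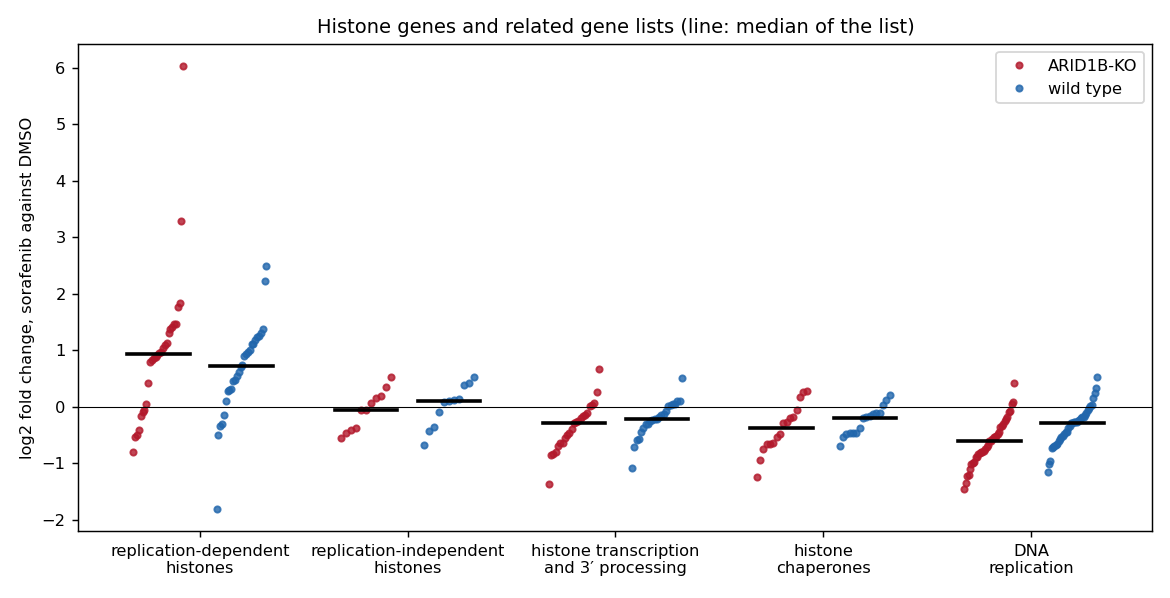
Log2 fold change of sorafenib against DMSO for each tested gene of 5 lists, in ARID1B-KO (red) and wild type (blue); thick lines are list medians. The medians of the replication-dependent histones lie at 0.94 and 0.72, and those of DNA replication genes at -0.61 and -0.28.

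Among 37 DNA replication genes, sorafenib gave 27 lower and 1 higher in ARID1B-KO, where 23.7% of all genes were lower and 23.0% higher. In wild type it gave 22 lower and 3 higher, where 18.0% of all genes were lower and 17.5% higher. RRM2, a subunit of ribonucleotide reductase, fell by 1.45 in ARID1B-KO (edgeR adjusted p = 4.2e-07) and by 1.16 in wild type (edgeR adjusted p = 4.02e-06) on the log2 scale. CDC6, which loads the replicative helicase, fell by 1.34 (edgeR adjusted p = 6.62e-07) and by 0.73 (edgeR adjusted p = 0.000125), ARID1B-KO given first. Histone chaperones included 8 that fell and 1 that rose of 16 in ARID1B-KO, and 6 that fell and 0 that rose in wild type. Among them CHAF1A, a subunit of the chromatin assembly factor that places new H3 and H4 behind the fork, fell by 0.74 in ARID1B-KO (edgeR adjusted p = 6.27e-06) and by 0.47 in wild type (edgeR adjusted p = 0.000339). CDKN1A, an inhibitor of cyclin-dependent kinases, rose by 0.63 in ARID1B-KO (edgeR adjusted p = 0.000247) and by 0.79 in wild type (edgeR adjusted p = 7.31e-05), and no other gene of the 6 inhibitors tested rose.

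The replication-independent histones, which are made outside S phase from polyadenylated messages, had calls in both directions. Of 11 tested, 2 rose and 4 fell with sorafenib in ARID1B-KO, beside 23.0% higher and 23.7% lower over all genes, and 3 rose and 2 fell in wild type, beside 17.5% and 18.0%. Counts this small near the shares over all genes describe no trait of the list. H2AJ, an H2A variant, rose by 0.53 in ARID1B-KO (edgeR adjusted p = 0.00202) and by 0.42 in wild type (edgeR adjusted p = 0.0118). H2AZ1, the H2A.Z variant, fell by 0.55 (edgeR adjusted p = 0.0139) and by 0.68 (edgeR adjusted p = 0.0055), ARID1B-KO given first. H2AX, whose message carries the stem-loop and also occurs with a poly(A) tail, fell by 0.40 in ARID1B-KO (edgeR adjusted p = 0.000874) and had -0.10 in wild type, not called.

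Outside these lists, the 3 genes whose log2 CPM went most closely with the summed histone counts over the 12 libraries were YPEL5, RNF181 and COG2, with Pearson correlations of 0.981, 0.98 and 0.976. YPEL5 averaged 34.4 CPM in ARID1B-KO with sorafenib and 13.9 CPM with DMSO, and 34.4 CPM in wild type with sorafenib and 18.1 CPM with DMSO. The 12 points share their treatment and genotype groups, and the genes were picked as the highest of all.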

How the data were processed

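Polyadenylated RNA of 12 HepG2 libraries was quantified by the authors with Salmon, per the file headers, and the submitters' processing notes also name DESeq2 1.46.0 and GRCh38. The design text names Ensembl 109; the models of 27 of 94 histone transcripts have the length given in GENCODE 44. The authors deposited estimated counts per transcript, not normalized, with model and effective lengths, and TPM values scaled within each library. A Salmon version and settings for bias or strand are not given in the sources used here.

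Of 177456 transcripts, 165533 (93.3%) matched GENCODE 44 by identifier. The unmatched held 2.87% to 3.20% of counts and were left out. Estimated counts were summed per gene and rounded. CPM were computed with TMM library sizes, and deposited TPM, summed per gene, gave levels between genes. Reads shared by near-identical copies are divided by Salmon, and 15 members share over 50% of the 75-base windows of their coding sequence with another gene, so their values are uncertain.

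All 12 libraries entered 1 model with 4 group means, tested in edgeR 4.0.16 by quasi-likelihood (robust, TMM, R 4.3.3) after filterByExpr (12821 genes, biological coefficient of variation 0.152). Calls used an adjusted p under 0.05 (Benjamini-Hochberg, all genes tested), and transcripts were tested likewise. Fold changes are given with an SE worked back from the fold change and the F statistic of the test. Where a group holds few counts, as for H4C15 and H4C5, this SE can be smaller than counting error alone. The procedure was tested on simulated data. Alternatives were DESeq2 1.42.0, its size factors, no filter, only the groups of a contrast, a replicate block, an effective length offset, protein-coding transcripts only, identical copies merged, and each library left out. All members are accounted for. Members called in any contrast were named with values in every library, other members by level or count. Of the related lists, the most strongly called genes, SLBP and NPAT were open to naming. The members and lists were chosen with earlier results of these data known. P-values measure the spread between these libraries.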

Additional observations from a re-analysis of the deposited data

Results flagged for a closer look

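The response of H4C15 to sorafenib differed between genotypes by a test of the difference itself, at a log2 interaction of 6.37 (edgeR adjusted p = 0.00766). H4C15 had 2.88, 2.41 and 1.88 CPM in ARID1B-KO with sorafenib and 0.09, 0 and 0 CPM with DMSO, and 1.29, 0.56 and 0.99 CPM in wild type with sorafenib and 1.22, 1.06 and 1.35 CPM with DMSO. Summed with H4C14, whose coding sequence is identical, the interaction was 0.82 (edgeR adjusted p = 0.31).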

How the results depend on the processing

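Over the alternatives tried, the 34 called results of single histone genes kept their direction and their side of the threshold in 586 of 676 recomputed values, lost the call in 89 and changed sign in 1, and the 106 results that were not called stayed so in 1961 of 2057, gained a call in 14 and changed sign in 82. The counts of histone genes called with sorafenib in wild type (11) became 6 with the effective length offset, 7 with protein-coding transcripts only and 6 to 11 leaving out 1 library. In ARID1B-KO the count was 11 to 14 (14 with all libraries). For ARID1B-KO against wild type it was 4 to 6 in DMSO (4 with only the groups of the contrast or protein-coding transcripts only), and with sorafenib it was 1 with the length offset, 1 with protein-coding transcripts only and 1 to 3 leaving out 1 library. The interaction count was 0 with the length offset, protein-coding transcripts only or identical copies merged, and 1 whichever library was left out. The causes were not tested. Over all genes, the length offset gave 2870 calls for sorafenib in wild type, 2191 for ARID1B-KO against wild type in DMSO, 2045 with sorafenib and 2 for the interaction, whose count was also 584 with DESeq2, 19 with protein-coding transcripts only, 19 with the replicate block and 5 (without wild-type sorafenib replicate 2) to 138 leaving out 1 library (107 otherwise). Histone transcripts called numbered 3 without the filter and 3 to 6 leaving out 1 library in ARID1B-KO, 1 without the filter, 2 with the replicate block and 1 to 4 leaving out 1 library in wild type, and 0 to 1 for ARID1B-KO against wild type with sorafenib.

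No clear pairing by replicate number was seen. Same-numbered libraries deviated together with correlations of -0.163 to 0.184, 1 of 18 pairs was over 0.1, and 4 of 12 libraries correlated best with their own number. With 3 libraries per group these values cannot exclude a pairing. With the replicate block, 14 histone genes were called for sorafenib in ARID1B-KO, 10 in wild type, 5 for ARID1B-KO against wild type in DMSO, 2 with sorafenib and 1 for the interaction.

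Signs changed mainly in values that were not called. With the replicate block, sorafenib in ARID1B-KO gave 0.078 for H1-4 and -0.079 for H4C14. With the length offset, sorafenib in wild type gave -0.65 for H2BC11, -0.21 for H4C16 and 0.018 for H4C15, ARID1B-KO against wild type in DMSO gave 0.16 for H2BC11, 0.39 for H2BC15, -0.43 for H4C14 and -0.33 for H3C6, and the interaction gave -0.17 for H2BC15 and -0.060 for H2AC17. With protein-coding transcripts only, H4C15 had 1.01 for sorafenib in wild type, H4C14 had -6.29 for ARID1B-KO against wild type in DMSO and 3.98 for the interaction, and H2AC6 had -0.54 for the interaction. With identical copies merged, an alternative chosen after seeing the data, H4C15 had 1.06 for sorafenib in wild type and -0.089 for ARID1B-KO against wild type with sorafenib, where H4C11 had -0.13, and H4C14 had -0.91 for ARID1B-KO against wild type in DMSO and 0.82 for the interaction. DESeq2 gave -0.006 for the interaction of H3C6. Leaving out 1 library gave log2 ranges that cross 0 for values not called. For sorafenib in ARID1B-KO these were H1-4 -0.42 to 0.27, H4C11 -0.44 to 0.14, H4C16 -0.35 to 0.082 and H4C14 -0.999 to 0.61. For sorafenib in wild type these were H2BC11 -0.53 to 0.40, H2AC20 -0.27 to 0.10, H4C11 -0.54 to 0.16, H4C16 -0.024 to 0.64, H2BC8 0.000 to 0.88 and H3C3 -0.92 to 0.26. For ARID1B-KO against wild type in DMSO these were H2AC20 -0.094 to 0.38, H2BC13 -0.41 to 2.61, H2AC13 -0.78 to 0.45, H4C11 -0.36 to 0.33, H3C14 -0.30 to 0.75, H2BC15 -0.30 to 0.13, H3C6 -0.038 to 0.63 and H3C3 -0.72 to 0.54. For ARID1B-KO against wild type with sorafenib these were H1-4 -0.98 to 0.075, H4C11 -0.27 to 0.31, H4C5 -0.18 to 0.045, H2AC8 -0.27 to 0.076 and H3C3 -0.88 to 0.060. For the interaction these were H4C8 -0.25 to 0.81, H1-2 -0.23 to 0.19, H2AC13 -0.25 to 0.99, H2AC11 -0.089 to 0.27, H4C11 -0.26 to 0.45, H3C6 -0.42 to 0.25, H2AC8 -0.048 to 0.77, H2AC17 -0.40 to 0.64 and H3C3 -0.79 to 0.47. Counts of 732 to 2386 per library on these genes limit the precision of all but the highest members.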
